A study of Neurospora crassa with 2 samples.

Results

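The cytoplasmic ribosomal protein genes of Neurospora crassa that carry a crp symbol (crp for cytoplasmic ribosomal protein) were described in the mRNA-seq of the wild type (WT). They were taken as every row of the deposited table whose gene name is crp followed by a number. This gave 7 of 10559 genes, which were crp-2, crp-3, crp-4, crp-5, crp-7, crp-10 and crp-15, and all 7 had reads at both time points. The table covers WT hyphae kept in constant darkness for 20 hr (DD20) and for 12 hr (DD12). Both groups share the wild type genotype, which in this study also carries the bd mutation used to make conidial bands visible, and both grew in liquid glucose medium. Each time point is a single column (1 per group). The paper describes duplicate RNA samples, each pooled from independent cultures, and its main text, the part used here, does not settle whether the columns hold 1 sample or combine the duplicates. No test between the time points was therefore possible and no p-value is given, so every difference below is between 2 columns and has no replicate check.

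A ribosome is built from rRNA and many different proteins, each present in about 1 copy per particle, so that the subunits are needed in near equal numbers. In fungi the mRNAs of these proteins are among the most abundant of growing cells, and their genes are known for being turned up and down together with growth rate and nutrient supply. In yeast this control runs through the TOR and protein kinase A pathways. The small subunit of the ribosome reads the mRNA and the large subunit joins the amino acids. Among the members, crp-2 encodes the homolog of the small subunit protein S14, known in yeast for cryptopleurine resistance, crp-3 that of S17 and crp-5 that of S26. RefSeq gives S7 as a synonym of crp-15. The subunits encoded by crp-4, crp-7 and crp-10 are not named by the sources used here.

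The authors deposited RPKM, the reads on a gene scaled by its length and by the library total, so levels can be compared between genes. The steps between the values, which whole reads leave, gave library totals of 29960356 reads at DD20 and 30712952 reads at DD12. The members took 0.939% to 1.07% of these reads at DD20 and 0.818% to 0.898% at DD12, the range coming from crp-15, for which 7 gene lengths between 265 nt and 2333 nt gave whole reads. The lengths of the other members were unique and lay between 705 nt (crp-7) and 2189 nt (crp-3). The conidial con genes were low but not absent in these hyphae, and lower at DD20. The levels were 1.64 RPKM at DD20 and 6.43 RPKM at DD12 for con-6, 0.790 RPKM at DD20 and 2.31 RPKM at DD12 for con-10, 0.346 RPKM at DD20 and 0.944 RPKM at DD12 for con-8, and 0.0326 RPKM at DD20 and 0.318 RPKM at DD12 for con-13. The hydrophobin gene eas, also a conidial marker, was not low, with 7682 RPKM at DD20 and 9199 RPKM at DD12. The conidiation regulator fl had 7.72 RPKM at DD20 and 6.90 RPKM at DD12. Genes that RefSeq lists as rRNA held 5.03% of the summed RPKM at DD20 and 7.81% at DD12. The part of the conidial genes and of the rRNA in the differences below was not tested.

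All 7 genes were abundant at both time points. Their levels ran from 621 to 1680 RPKM at DD20, with a median of 1068 RPKM, and from 384 to 1223 RPKM at DD12, with a median of 899 RPKM. The lowest member still lay above 98.7% of the genes of the table at DD20 and above 98.3% at DD12. Summed, the group held 1.66% of all RPKM at DD20 (7246 of 436506) and 1.48% at DD12 (6199 of 418508). As RPKM is per length, this is a share of transcript level and not of reads. It covers only the genes with a crp symbol. Ribosomal protein genes under other names, 4 of which are described below, are not in it. Of the members, 5 were higher at DD20, crp-2 was lower, and crp-3 was nearly equal, with a sign that depends on the scaling of the columns. Most genes were higher at DD20 too, 66.2% of those with a mean of at least 1 RPKM. The share was 80.7% of the genes whose mean level lay within the range of the members.

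**Figure D1:**
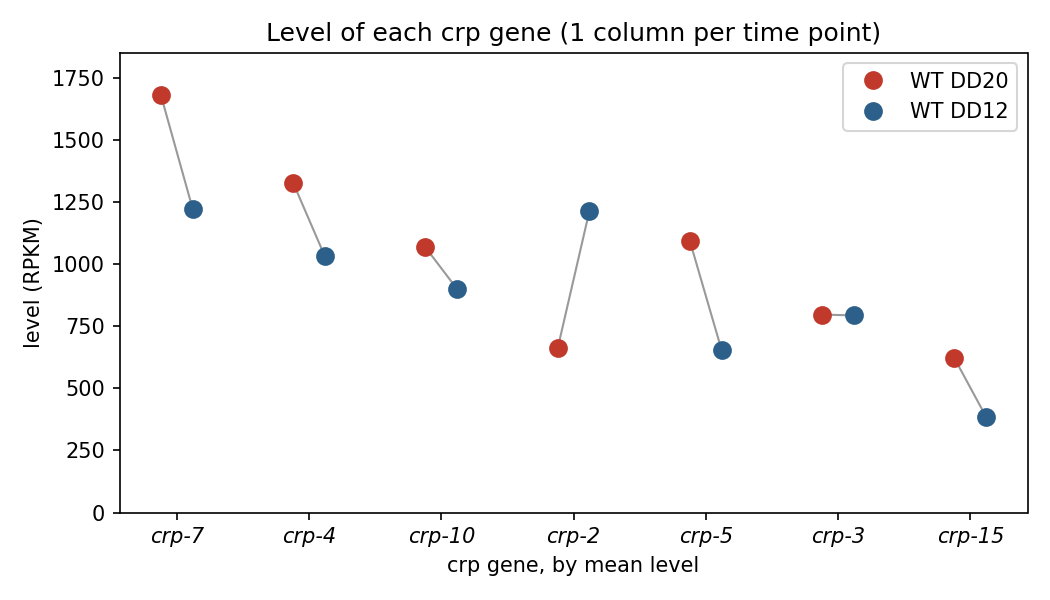
Level in RPKM of each of the 7 crp genes at DD20 (red, left) and at DD12 (blue, right), 1 value per gene and time point, ordered by mean level; the thin line joins the values of a gene. The DD20 point lies above the DD12 point for 6 genes, by 3.23 RPKM only for crp-3, and below it for crp-2, which had 662 RPKM at DD20 and 1215 RPKM at DD12.

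The S14 gene crp-2 was lower at DD20. It had 662 RPKM at DD20, from 21668 reads, and 1215 RPKM at DD12, from 40785 reads. It was the sixth of the 7 members in level at DD20 and the second at DD12, and its rank in the whole table was 127 at DD20 and 38 at DD12. Ratios were taken of DD20 over DD12 on the log2(RPKM + 1) scale, over genes with a mean of at least 1 RPKM. The log2 ratio of crp-2 was -0.88, a level at DD20 of 0.545 times that at DD12. The 95% counting interval (exact Clopper-Pearson) was -0.91 to -0.84. Reads were divided by 2 for it, in case the mates of a pair were counted separately, which the sources used here do not state. Such intervals cover counting error only, compare the columns and not the conditions, and were taken without the added 1. Of the 7414 genes with a mean of at least 1 RPKM, 243 (3.28%) had a log2 ratio as low as that of crp-2 or lower, and so did 8 of the 119 genes (6.72%) whose mean level lay within the range of the members. Both counts include crp-2 itself.

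The other small subunit genes with a known protein differed among themselves. The S26 gene crp-5 had 1092 RPKM at DD20, from 52696 reads, and 653 RPKM at DD12, from 32305 reads. Its log2 ratio of 0.74 (counting interval 0.71 to 0.77) was the highest of the group. The S7 gene crp-15 had 621 RPKM at DD20 and 384 RPKM at DD12, and was the least abundant member at both. Its log2 ratio was 0.69, with a counting interval of 0.60 to 0.78 at the shortest length, which gives the fewest reads, 4928 at DD20 and 3129 at DD12. In contrast, the S17 gene crp-3 had 797 RPKM at DD20 and 794 RPKM at DD12. Its log2 ratio was 0.0058, and the interval of -0.019 to 0.031 spans 0, although 52265 reads at DD20 and 53361 at DD12 lay on the gene. The sign for crp-3 depends on how the columns are scaled, as it was -0.055 with both columns set to the same summed RPKM and -0.14 with ratios centred on the median of all genes. The 4 genes of the small subunit with a named protein thus ran from 0.545 times (crp-2) to 1.67 times (crp-5) their DD12 level.

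The remaining members lay between these. The most abundant member at both time points was crp-7, with 1680 RPKM at DD20, from 35483 reads, and 1223 RPKM at DD12, from 26473 reads. Its log2 ratio was 0.46 (counting interval 0.43 to 0.49). The level of crp-4 was 1327 RPKM at DD20, from 52162 reads, and 1031 RPKM at DD12, from 41543 reads, a log2 ratio of 0.36 (0.34 to 0.39). The level of crp-10 was 1068 RPKM at DD20, from 62178 reads, and 899 RPKM at DD12, from 53695 reads, a log2 ratio of 0.25 (0.22 to 0.27). These 3 genes differed by 1.19-fold to 1.37-fold, less than crp-5 and crp-15, whose counting intervals lay above theirs.

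**Figure D2:**
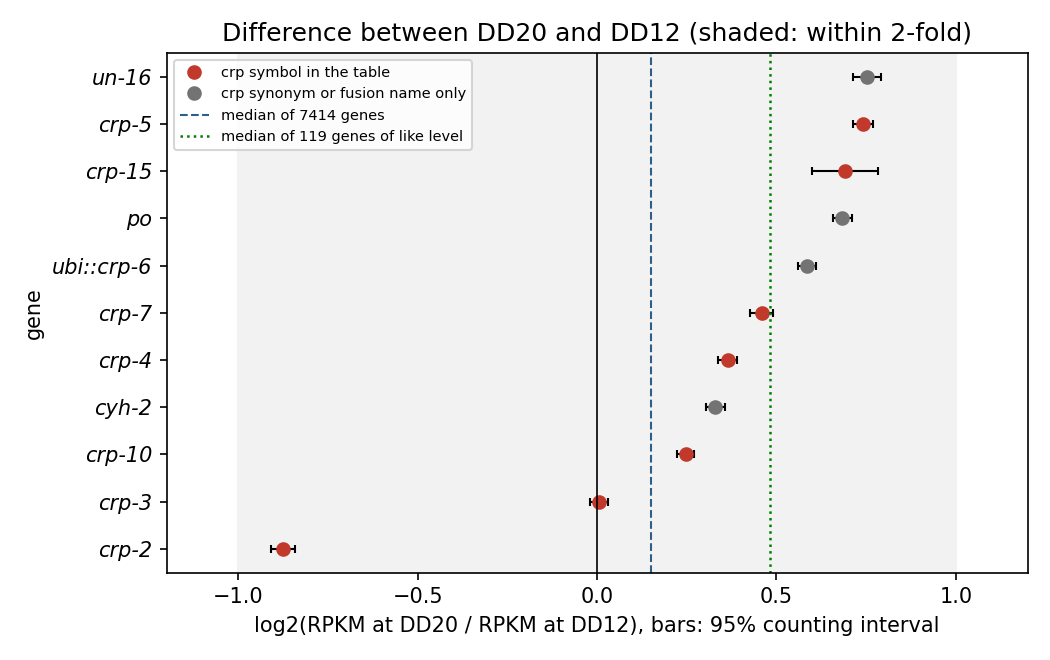
Log2 ratio of RPKM at DD20 to RPKM at DD12 (x axis, without the added 1) for the 7 genes with a crp symbol (red) and 4 genes with a crp synonym or fusion name only (grey), with 95% counting intervals as bars; the dashed line is the median of 7414 genes (0.15), the dotted line that of 119 genes of like level (0.48), and the shading marks differences within 2-fold. Both medians were taken with 1 RPKM added, unlike the points. The gene crp-2, at -0.88, lies apart from the other genes, which run from 0.0058 for crp-3 to 0.75 for un-16.

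The median shift of the group lay between that of all genes and that of the genes of like level. Both of these sets hold the 7 members themselves and the 4 genes with a crp synonym or fusion name described below. The median log2 ratio of the 7 members was 0.36, and 0.41 without crp-2, against 0.15 over all 7414 genes and 0.48 over the 119 genes of like level. Of the 7, 0 reached 2-fold in either direction. Among all genes 0.742% were at least 2-fold higher at DD20 and 2.33% at least 2-fold lower, and among those of like level 2.52% were higher and 2.52% lower. At a smaller threshold, 0.32 on the log2 scale, 4 of 7 were higher at DD20 (crp-4, crp-5, crp-7 and crp-15), and the background was 29.0% of all genes and 62.2% of the genes of like level. One member (1 of 7) was lower by as much, against 14.0% of all genes and 11.8% of those of like level. A log2 ratio above 0 was found for 6 of 7 members, for 66.2% of all genes and for 80.7% of the genes of like level. Under each of 3 other scalings crp-3 fell below 0, which left 5 of 7 members above 0. Under these scalings 46.4% to 60.9% of all genes and 73.9% to 77.3% of the genes of like level were above 0. As deposited, the counts of the members were therefore near those of the genes of like level, a set that is not independent of them. Ribosomal protein genes known only by a locus number were not marked, so the set may hold more of them.

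**Figure D3:**
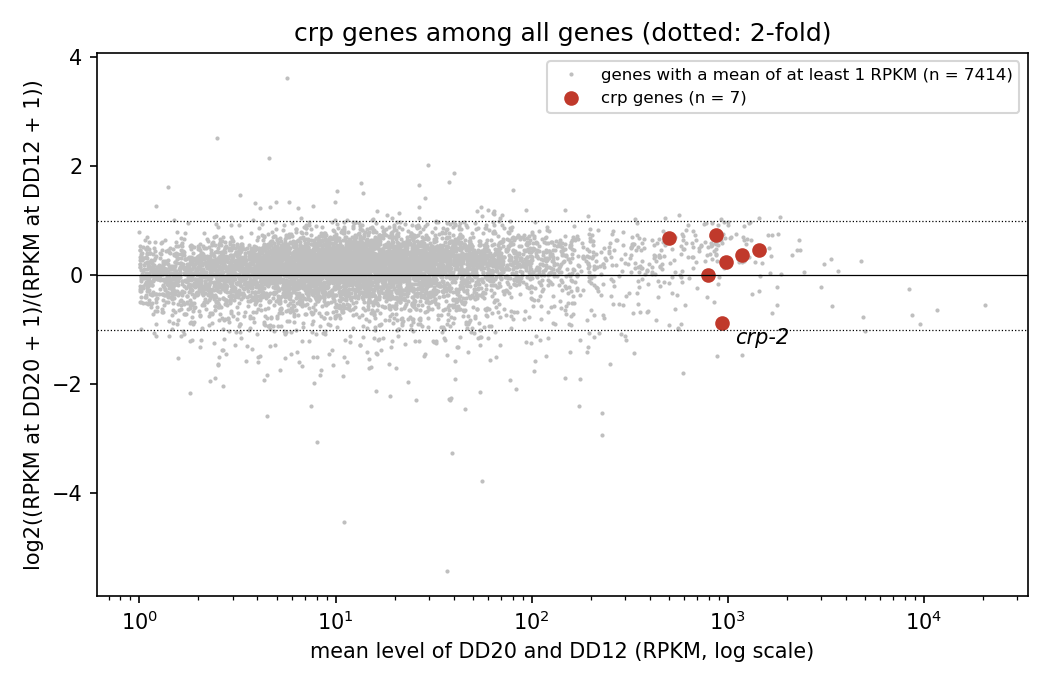
Log2 ratio of DD20 over DD12, with 1 RPKM added to each, against the mean level of the time points in RPKM (log scale) for the 7414 genes with a mean of at least 1 RPKM (grey) and the 7 crp genes (red); dotted lines mark 2-fold. The crp genes sit at the upper end of the levels, 502.6 to 1451 RPKM on average, with crp-3 at about 0, 5 genes above it and crp-2 just inside the lower 2-fold line.

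These sizes depended on the scaling. The 10 most abundant genes of the table took 15.0% of the summed RPKM at DD20 and 22.9% at DD12. With the columns rescaled to the same sum without these genes the median of all genes was -0.028 and that of the members 0.16. Under this setting crp-2 had a log2 ratio of -1.08, so 1 of 7 was lower by more than 2-fold, as were 3.63% of all genes and 6.72% of the genes of like level. In the other direction, 2 of 7 (crp-5 and crp-15) were higher by at least 0.32, as were 13.1% of all genes and 43.7% of those of like level. The ratio of crp-2 was below 0 and those of crp-4, crp-5, crp-7, crp-10 and crp-15 above 0 in the 7 settings run.

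Ratios between subunits within a column do not depend on the library scaling. The level of crp-2 was 0.613 times the median of the other 6 members at DD20 and 1.44 times that median at DD12. A change in such a ratio between the time points is nearly the difference between the log2 ratios given above for the genes in it. As crp-2 was set apart after its ratio was seen, the split of pairs below restates those ratios and is no separate result. Of the 15 pairs that can be formed without crp-2, the log2 of the within-column ratio moved by 0.33 between the time points at the median and by at most 0.74, and 2 pairs changed order. Of the 6 pairs with crp-2 it moved by 0.88 to 1.62, and 4 changed order. Within the group, crp-2 made up 9.13% of the summed RPKM at DD20 and 19.6% at DD12. The part of crp-5 was 15.1% at DD20 and 10.5% at DD12, that of crp-7 was 23.2% at DD20 and 19.7% at DD12, and that of crp-15 was 8.57% at DD20 and 6.20% at DD12. The part of crp-3 was smaller at DD20, 11.0% against 12.8% at DD12, although its RPKM was nearly the same. Without crp-2, the group held 1.51% of all RPKM at DD20 and 1.19% at DD12, a wider difference than with it.

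**Figure D4:**
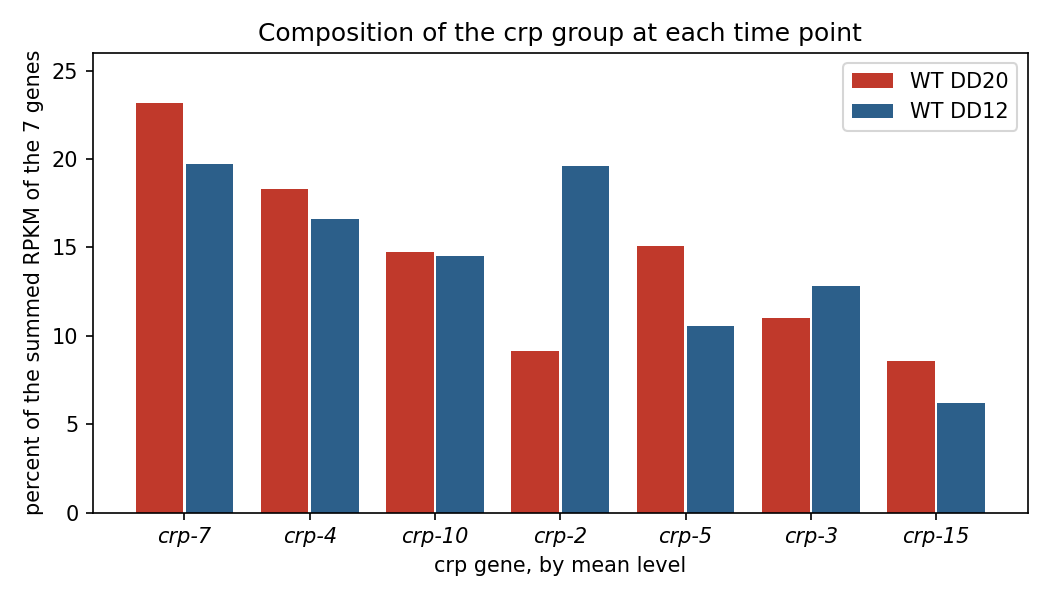
Percent of the summed RPKM of the 7 crp genes taken by each gene (bars from 0) at DD20 (red, left) and DD12 (blue, right). The part of crp-2 is 9.13% at DD20 and 19.6% at DD12, and that of every other gene but crp-3 is larger at DD20.

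The spread of levels among the subunits was small beside that of the genome. The highest member had 2.71 times the level of the lowest at DD20 (crp-7 over crp-15) and 3.18 times at DD12 (the same genes). The SD of log2 RPKM over the 7 genes was 0.53 at DD20 and 0.59 at DD12, whereas that of all genes with at least 1 RPKM was 2.01 at DD20 and 1.97 at DD12. The ratio of the 90th to the 10th percentile was 2.28 at DD20 and 2.23 at DD12. Thus the width of the group was about the same at both time points, while the order within it was not. Spearman's rho between the levels at DD20 and DD12 was 0.54 over the 7 genes and 0.83 over the 6 without crp-2. These are descriptions across genes, whose values share the same 2 columns, and crp-2 was left out after its ratio was seen.

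RefSeq (assembly NC12) pairs 4 further genes of the table with a crp name that the rule does not take. They were looked up after the values of the members had been seen. They are cyh-2 (crp-1 as a synonym), the gene of the large subunit protein L27a in which cycloheximide resistance arises, po (P0, the base of the stalk of the large subunit), ubi::crp-6 (a fusion of ubiquitin to the small subunit protein S27a) and un-16 (crp-17 as a synonym). All 4 were higher at DD20. The level of cyh-2 was 1436 RPKM at DD20 and 1143 RPKM at DD12, a log2 ratio of 0.33. The level of po was 1193 RPKM at DD20 and 743 RPKM at DD12, a log2 ratio of 0.68, and that of un-16 was 730 RPKM at DD20 and 433 RPKM at DD12, a log2 ratio of 0.75. Counted with the members, 10 of 11 genes had a log2 ratio above 0, beside 66.2% of all genes and 80.7% of the genes of like level, and crp-2 was the only one below 0 as deposited, while crp-3 was below 0 too under each of the 3 other scalings. The 11 genes held 2.67% of the summed RPKM at DD20 and 2.20% at DD12.

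The genes next to the members on the chromosome, by the order of RefSeq, were mostly far lower in level. The exceptions lay beside crp-5 and crp-2. ubi::crp-6 is the neighbour of crp-5, and had 1030 RPKM at DD20 and 686 RPKM at DD12, a log2 ratio of 0.59 beside 0.74 for crp-5. crp-2 lies between NCU07829, with 1094 RPKM at DD20 and 696 RPKM at DD12, and NCU07831, with 113 RPKM at DD20 and 76.6 RPKM at DD12. The log2 ratios of these neighbours were 0.65 and 0.55, so both were higher at DD20 where crp-2 was lower. Being higher at DD20 was common, as 66.2% of all genes with a mean of at least 1 RPKM were. In RefSeq the spans of crp-3, crp-10 and crp-15 overlap that of a neighbour (NCU07013, NCU00490 and ro-2). These neighbours had at most 16.9 RPKM at DD20 and at most 14.3 RPKM at DD12. As the strand handling of the counting is not given in the sources used here, reads of the overlap cannot be assigned, but the levels of the neighbours were small beside those of the crp genes.

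Other genes of protein synthesis were sought through lists of symbols. The lists are short because most genes of the table carry only a locus number. cpc-2, the homolog of the small-subunit-bound scaffold protein RACK1, had 1387 RPKM at DD20 and 817 RPKM at DD12, a log2 ratio of 0.76. cpc-1, the homolog of the yeast amino acid control factor GCN4, had 626 RPKM at DD20 and 648 RPKM at DD12, and cpc-3, the homolog of the kinase GCN2, had 10.4 RPKM at DD20 and 24.4 RPKM at DD12. Their log2 ratios were -0.050 and -1.15, so cpc-3 was the only one of the 3 past 2-fold, a call that ended with 5 RPKM added in place of 1 (log2 ratio -0.93). The elongation factor gene tef-1 had 5206 RPKM at DD20 and 4354 RPKM at DD12 (log2 ratio 0.26), and eif5A had 804 RPKM at DD20 and 762 RPKM at DD12 (0.077). Neither of these 2 translation factors reached 0.32. A pattern of ribosome biogenesis names matched 2 symbols, by name alone. Of these, rrp3 had 4.55 RPKM at DD20 and 3.06 RPKM at DD12, and nop-1 was below 1 RPKM at both. A matching name does not show that either gene acts in ribosome biogenesis, and their products were not checked. No mitochondrial ribosomal protein symbol (0 genes) was matched.

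The proteasome is another complex of many subunits in fixed numbers. A pattern of proteasome gene names matched 25 genes of the table, by name alone, and whether each encodes a subunit was not checked. Of these, 23 had a mean of at least 1 RPKM, with a median of 61.9 RPKM at DD20 and 54.2 RPKM at DD12. Their median log2 ratio was 0.17, from -0.35 to 0.34, and 2 of 23 were higher and 1 was lower by at least 0.32 on the log2 scale. Among all genes with a mean of at least 1 RPKM, 29.0% were higher and 14.0% lower by as much. The crp genes, at a far higher level, had ratios of -0.88 to 0.74, and of 0.0058 to 0.74 without crp-2. Over all 25 matched genes the ratio of the 90th to the 10th percentile of level was 3.05 at DD20 and 2.77 at DD12. For the crp genes it was 2.28 at DD20 and 2.23 at DD12. The SD of log2 RPKM of the 25 was 1.89 at DD20 and 1.81 at DD12, with genes under a mean of 1 RPKM included. The differences between these lists were not tested.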

How the data were processed

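The libraries were made from polyA RNA of WT hyphae at DD20 and DD12. The authors deposited RPKM values, 1 column per time point. The labels name CASAVA 1.8 and HISAT as tools. The counting method, strand handling and genome build are not given in the sources used here. The analysis used scipy 1.17.1, numpy 2.4.6 and pandas 2.3.3 under Python 3.11.15, with matplotlib 3.10.9 for plots. Symbols and neighbours came from RefSeq (NC12), which matched 10526 of 10559 genes.

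Library totals and gene lengths were recovered from the steps of the values, within 0.002 reads plus 1e-07 of the reads. Of 8717 genes tried, 8716 gave whole reads. Among genes with 1 to 10 reads, 60.4% of 144 had even numbers at DD20 and 65.4% of 130 at DD12, so intervals used reads divided by 2. The steps were tested on simulated data.

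Named genes were to be the 5 highest and lowest members by level and by ratio, those past 2-fold, crp-1 to crp-3 and cpc-1 to cpc-3, which covers all 7 members. Members and lists were chosen with earlier results of these data known. No count model was fitted, and alternative pseudocounts, filters and scalings were run. Promoter motifs, which needed a promoter table, were not analysed here.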

Additional observations from a re-analysis of the deposited data

How the results depend on the processing

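No paired analysis was possible because each group is a single column (1 per time point), so leaving out replicates was not possible either. The median log2 ratio of the crp genes was 0.36. It was 0.30 with both columns rescaled to the same summed RPKM, 0.16 rescaled without the 10 most abundant genes, 0.21 with ratios centred on the median of all genes, and, chosen after seeing the data, 0.41 without crp-2 and 0.46 with the 4 genes of a crp synonym or fusion name. Rescaling without the 10 most abundant genes and centring each gave 1 crp gene lower at DD20 by 2-fold or more, in place of 0. The shares were 3.63% and 3.45% of all genes, and 6.72% of the genes of like level under both. Each also gave 2 crp genes higher by at least 0.32 on the log2 scale, in place of 4. The shares were 13.1% and 15.2% of all genes, and 43.7% and 50.4% of the genes of like level. With equal summed RPKM 3 were higher by as much (23.0% of all genes and 56.3% of the genes of like level). Under each of the 3 scalings 5 crp genes were above 0, in place of 6. So were 60.9% of all genes with equal summed RPKM, 46.4% without the 10 most abundant genes and 50.0% with centring. Of the genes of like level, 77.3%, 73.9% and 73.9% were above 0, in the same order. The cause of the shift of all genes was not tested. Rescaling without the 10 most abundant genes also turned the median of all genes to -0.028, that of the translation factors to -0.034 and that of the proteasome list to -0.025. The crp share of summed RPKM was 1.66% at DD20 and 1.48% at DD12. It was 1.75% at DD20 and 1.61% at DD12 without the rRNA genes in the sum, 1.95% at DD20 and 1.92% at DD12 without the 10 most abundant genes, 1.51% at DD20 and 1.19% at DD12 without crp-2, and 2.67% at DD20 and 2.20% at DD12 with the 4 added genes. Without the highest and the lowest member, the SD of log2 RPKM was 0.40 at DD20 and 0.34 at DD12 and the ratio of the 90th to the 10th percentile was 1.72 at DD20 and 1.61 at DD12. Without crp-2, the SD was 0.51 at DD20 and the percentile ratio 2.12 at DD20 and 2.17 at DD12. Of 98 values of named genes under the settings, 41 moved beyond the counting error of the gene, 40 of them under the 3 scalings, which shift all genes nearly alike, and 1 (cpc-3) with a pseudocount of 5. Pseudocounts and filters changed no count of crp genes.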
